A study of Macaca fascicularis with 6 samples.

Results

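The genes of oxidative phosphorylation (OXPHOS) were followed through the stages of a cartilage transplant in the cynomolgus monkey. They were taken by symbol: the nuclear genes whose symbols start with NDUFA, NDUFB, NDUFC, NDUFS, NDUFV, SDH, UQCR, COX4 to COX8 or ATP5, and the 13 protein genes of mitochondrial DNA. This gave 76 of the 14020 listed genes, 63 of them nuclear and 13 mitochondrially encoded. Of the nuclear members, 54 encode subunits, 8 encode assembly factors (symbols starting NDUFAF or SDHAF) and 1 encodes the inhibitor ATP5IF1. NDUFA4 and its paralog NDUFA4L2 were placed with complex IV, with which NDUFA4 purifies, although their symbols carry the prefix of complex I.

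OXPHOS is the pathway by which mitochondria turn the energy of nutrients into ATP. Complexes I to IV of the inner membrane pass electrons from NADH and succinate to oxygen, all but complex II pump protons on the way, and complex V, the ATP synthase, lets the protons flow back and makes ATP. Complexes I, III, IV and V are built from products of both genomes, whereas the subunits of complex II are all nuclear. Mitochondrial genes are transcribed as long precursors from both strands and cut into single mRNAs, so their levels are set apart from those of the nuclear partners. Cartilage has no blood vessels and little oxygen, and its chondrocytes are known to rely heavily on glycolysis.

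Single-cell transcriptomes were made by TAS-Seq on the BD Rhapsody platform, which captures the RNA of each cell on a barcoded bead. A line of cynomolgus iPS cells carries EGFP under a constitutive promoter at the AAVS1 locus, and was sequenced undifferentiated (cyiPSC) and as cartilage organoids made from it before surgery (pre-transplant cyiPS-Cart). The organoids were also taken from chondral defects of the knees of monkeys 3 to 4 years old, 4 months after surgery (post-transplant cyiPS-Cart). Wild-type monkeys of the same age gave undamaged cartilage of the joint surface (cyAC) and, from defects left without a graft, fibrous repair tissue (cyFT), also 4 months after surgery. The 2 cultured conditions come from 1 iPS cell line, and the sources used here do not name which or how many monkeys each tissue library holds, although 3 monkeys of each group were taken at this time and the sites of a monkey not used for histology were combined for sequencing. The label of the post-transplant library gives the recipients' wild-type genotype, but *EGFP* reads (listed as GFP-polyA) were held by all 265 of its cells with *COL2A1* and no *COL1A1* reads, all 7 with *COL1A1* alone and all 47 with both.

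There was 1 sample per condition, in 3 libraries: cyiPSC with pre-transplant cells, post-transplant cells alone, and cyAC with cyFT. Cells are not replicates of a condition, so the comparisons have no replicate check and carry no p values. Intervals are 95% intervals that cover counting error only, and reads without molecular identifiers are not independent molecules, so true intervals are wider. One deposited matrix holds 2500 cyiPSC and 3527 pre-transplant cells and a second holds 320 cells of each of the other conditions and of pre-transplant cyiPS-Cart, of which 300 were also in the first. Median reads per cell ran from 27499.5 in cyFT to 143075 in cyiPSC. The post-transplant cells shared 2 cell numbers with the library of cyiPSC and pre-transplant cells and 0 with that of cyAC and cyFT, and those 2 libraries shared 4 with each other.

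The labels were set against cell type markers. The listed iPS cell markers (5 of 6 genes) summed to 359 CPM in cyiPSC (counts scaled to a common total, here reads per 1000000 reads of all listed genes) and to 7.71 CPM or less elsewhere. The 6 chondrocyte markers summed to 68.3 CPM in cyiPSC and to between 30819 CPM in cyFT and 74208 CPM in post-transplant cells. Immune markers (*PTPRC*, *CD68*, *CD3E*, *CD14* and *LYZ*) summed to 649 CPM in cyFT, against 27.2 CPM in cyAC and at most 5.04 CPM in the rest, and *CD3E* was at 0 in cyFT. Fibrous tissue markers (5 genes) summed to 389 CPM in cyiPSC, 22687 in pre-transplant cells, 70658 in post-transplant cells, 8625 in cyAC and 46991 in cyFT, a sum made up mostly of the collagens *COL1A1*, *COL1A2* and *COL3A1*. The sum was highest in post-transplant cells, through *COL1A2* and *COL3A1*, whereas *COL1A1*, *THY1* and *PDGFRA* were lower there than in cyFT. Muscle markers (4 genes) summed to 754 CPM in cyiPSC, of which *ACTA1* held 716 CPM, and to 37.7 CPM or less elsewhere. *DES* was lower in cyiPSC (6.34 CPM) than in pre-transplant cells (20.6 CPM). Endothelial markers (3 genes) summed to 10.9 CPM or less in every condition. None of the 3 erythroid markers is listed. No *EGFP* read was found in cyAC or cyFT, which allows up to 0.254 and 0.271 CPM. The part of other cell types in the results was not tested, beyond the values by collagen class given at the end.

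As a share of reads, both genomes contributed most in cyiPSC. The post-transplant cells combined the lowest mitochondrial level with a nuclear level above that of the cartilage before transplantation. With TMM factors, which assume that most genes do not differ, the mitochondrial sum was higher in pre-transplant cells than in cyiPSC (log2 ratio 0.22). Members encoded in mitochondrial DNA took a median of 7.85% of a cell's reads in cyiPSC (quartiles 6.85% and 8.74%). The median was 5.46% in pre-transplant cells (4.71% and 6.31%), 1.68% in post-transplant cells (1.23% and 2.22%), 3.37% in cyAC (2.81% and 4.22%) and 3.76% in cyFT (2.70% and 5.08%). The quartile ranges of pre- and post-transplant cells lay apart: 25% of the pre-transplant cells were below 4.53% in the matrix shared with post-transplant cells, where 5% of the post-transplant cells were above 3.66%.

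The nuclear members followed another order. Their median share was 1.43% of a cell's reads in cyiPSC, 0.667% in pre-transplant cells, 0.733% in post-transplant cells, 0.446% in cyAC and 0.496% in cyFT. Their level was thus highest in cyiPSC and low in both cyAC and cyFT, whose order turned with TMM factors. The number of mitochondrially encoded reads for each nuclear member read, which does not depend on how libraries are scaled, was 5.44 in cyiPSC, 8.38 in pre-transplant cells, 2.68 in post-transplant cells, 8.15 in cyAC and 8.02 in cyFT. Post-transplant cells were thus the condition with the lowest ratio, and the other 3 cartilage or repair tissues differed little from each other. Post-transplant cells were alone in their library, so condition and library cannot be told apart in this ratio or those per complex below.

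**Figure D1:**
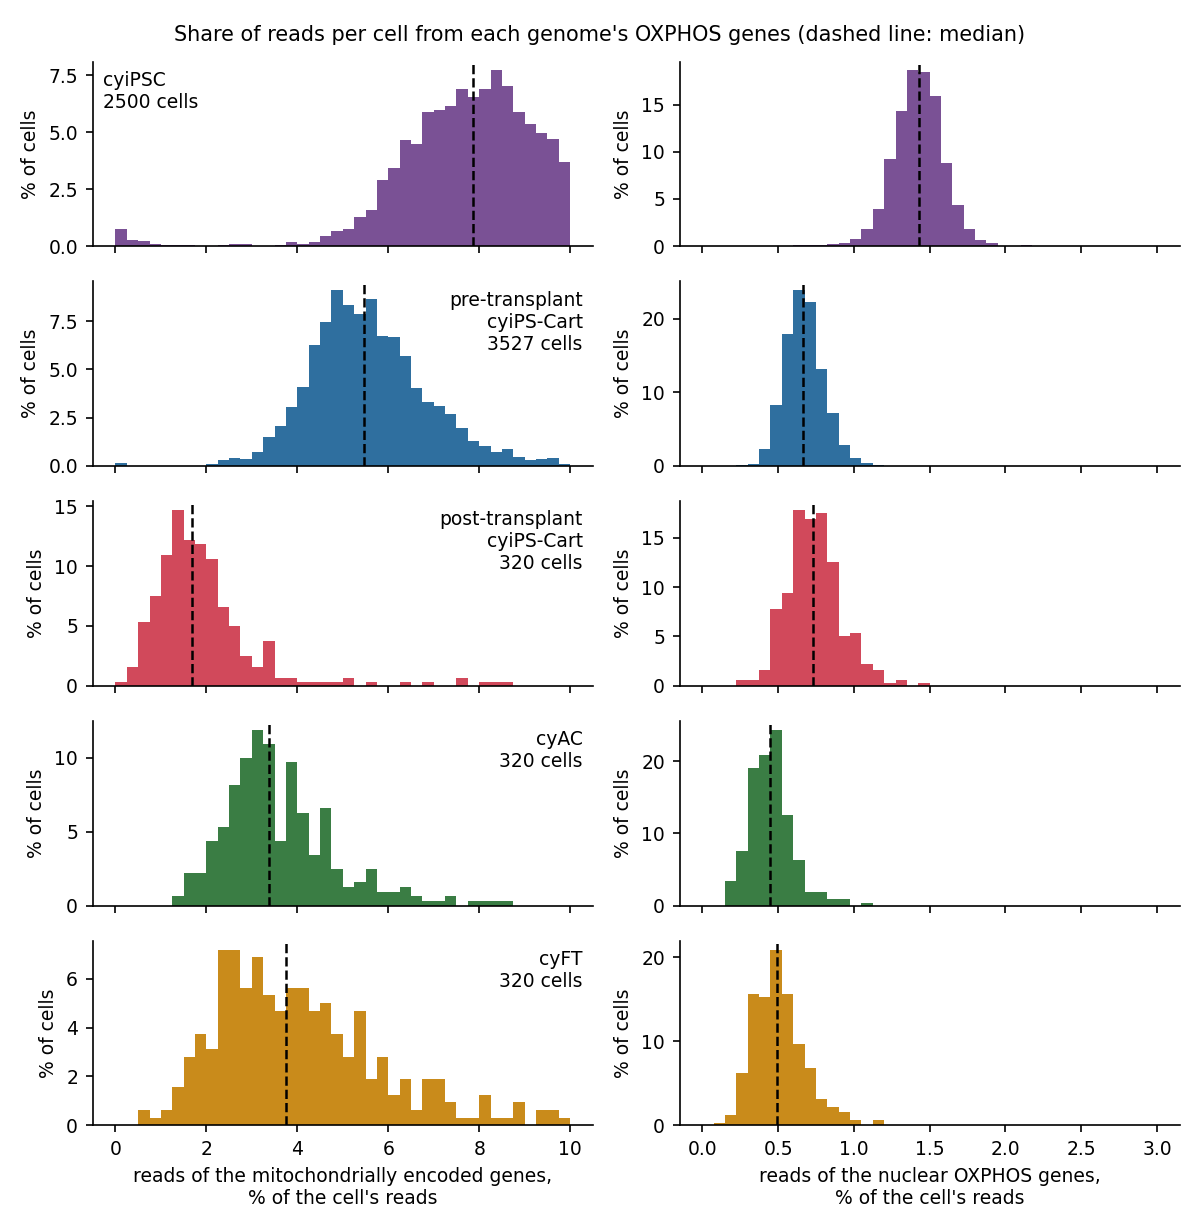
Histograms of the share of each cell's reads (x axis, %) that came from the 13 mitochondrially encoded members (left) and from the 63 nuclear members (right), as % of the cells of each condition (y axis), with the median as a dashed line. The mitochondrial share of post-transplant cells centres on 1.68%, against 5.46% before transplantation, while the nuclear shares of both centre near 0.7%, at 0.733% and 0.667%.

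The mitochondrial shares were bounded by the filter of the authors, who removed cells above a mitochondrial threshold that their text does not name. No cell exceeded 10%. The highest share was 10.0% in cyiPSC, where 18.7% of the cells lay at 9% or more, against 1.16% of the pre-transplant cells and 0% of the post-transplant cells, which allows a share of up to 0.938%. The level given for cyiPSC is therefore that of the cells below this bound. The authors also set counts taken for diffused background to 0 for strongly read genes, gene by gene. The smallest count of *COX1* above 0 was 79 reads in cyiPSC, 78 in pre-transplant cells and 2 in post-transplant cells, and 20 of the 2500 cyiPSC cells held none. The part of these steps in the differences was not tested.

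Set side by side per complex, the 2 genomes moved apart in some comparisons and nearly together in others, as between cyFT and cyAC. The ratios below are reads of the mitochondrially encoded subunits for each read of the nuclear subunits of that complex, and they are compared only between conditions, since the reads per gene also depend on transcript length. In complex I the ratio was 4.33 in cyiPSC, 6.74 in pre-transplant cells, 2.27 in post-transplant cells, 9.88 in cyAC and 8.93 in cyFT. In complex IV it was 10.98, 15.3, 2.90, 11.7 and 12.9 in the same order. In complex III, where *CYTB* is the only mitochondrial gene and only *UQCRB* and *UQCRC1* represent the nuclear side, it was 17.2, 45.7, 17.7, 38.7 and 33.1.

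In complex V the ratio of the post-transplant cells lay close to those of cyAC and cyFT. The ratio was 2.26 in cyiPSC, 3.70 in pre-transplant cells, 2.67 in post-transplant cells, 2.63 in cyAC and 2.67 in cyFT. Between post-transplant and pre-transplant cells the ratio was 5.21-fold lower in complex IV, 2.94-fold lower in complex I, 2.72-fold lower in complex III and 1.36-fold lower in complex V. Between post-transplant cells and cyAC the log2 change was −2.12 in complex I (interval −2.15 to −2.10) and −2.02 in complex IV (−2.05 to −1.99), but 0.02 in complex V (−0.01 to 0.05). Nearly all mitochondrial reads of complex V are those of *ATP6*.

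**Figure D2:**
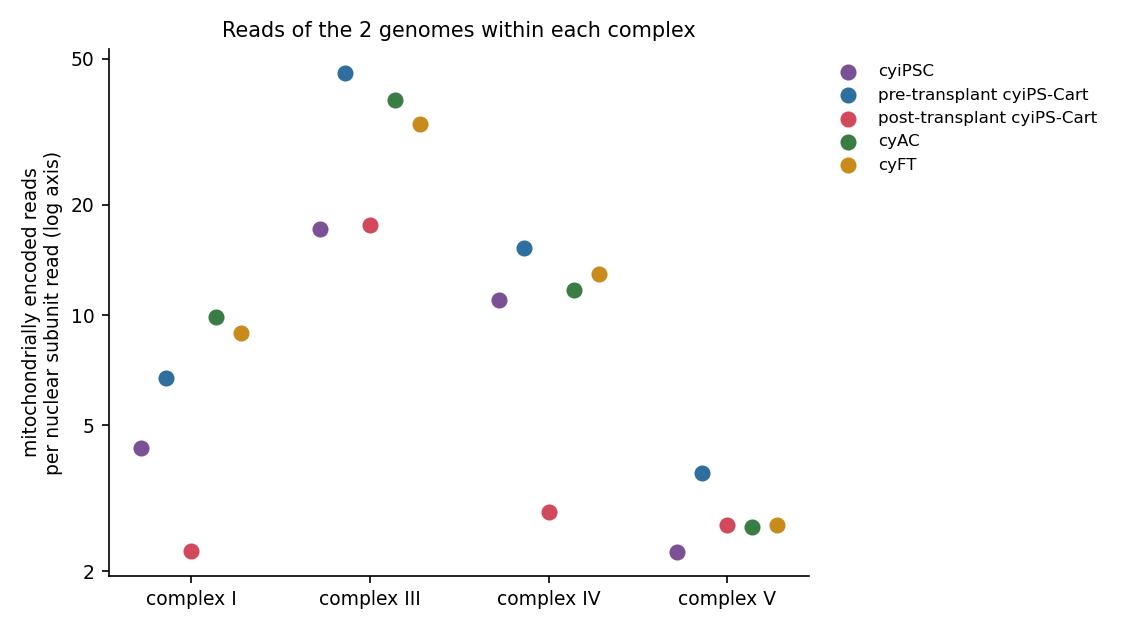
Reads of the mitochondrially encoded subunits for each read of the nuclear subunits (y axis, log scale) in each complex with subunits of both genomes, 1 point per condition. Post-transplant cells lie lowest in complexes I and IV, at 2.27 and 2.90, while in complex V they lie at 2.67, beside cyAC at 2.63 and cyFT at 2.67.

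The mitochondrially encoded genes differed widely in level between conditions. *COX1*, *COX2* and *COX3*, which form the catalytic core of cytochrome c oxidase, are complex IV subunits. *COX1* stood at 20666 CPM in cyiPSC, 15331 in pre-transplant cells, 2943 in post-transplant cells, 3299 in cyAC and 5108 in cyFT. *COX2* stood at 8597, 6353, 1673, 5802 and 6248 CPM in the same order, and *COX3* at 11683, 6130, 2149, 4124 and 4620 CPM. All 3 genes were lowest in post-transplant cells, and *COX1* was low in cyAC and cyFT as well.

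The ATP synthase genes *ATP6* and *ATP8*, which encode parts of the membrane domain and overlap on mitochondrial DNA, went apart. *ATP6* stood at 10555 CPM in cyiPSC, 7394 in pre-transplant cells, 5035 in post-transplant cells, 2950 in cyAC and 3440 in cyFT. *ATP8* stood at 427, 299, 133, 299 and 335 CPM. *ATP6* was higher in post-transplant cells than in cyAC and cyFT, and *ATP8* was lower. Reads from the overlap cannot be assigned to 1 of the 2 genes, and the same holds for *ND4L* and *ND4*.

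*CYTB*, the heme-bearing core of complex III, stood at 6470 CPM in cyiPSC, 5585 in pre-transplant cells, 1885 in post-transplant cells, 3774 in cyAC and 4137 in cyFT. The ND genes encode the proton-pumping membrane arm of complex I. *ND4* stood at 6368, 5600, 2231, 4031 and 4613 CPM and *ND5* at 2661, 2414, 671, 2839 and 3220 CPM in the same order. In both genes the post-transplant cells were lowest and the other 4 conditions lay within 2-fold of each other. *ND1* stood at 3965, 2532, 1076, 3931 and 2888 CPM, and *ND2* at 4801, 3870, 1587, 3727 and 3509 CPM. *ND4L* stood at 677, 616, 295, 835 and 958 CPM.

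*ND3* was low in post-transplant cells and *ND6* in every condition. *ND3* stood at 291 CPM in cyiPSC, 162 in pre-transplant cells, 36.6 in post-transplant cells (interval 34.5 to 38.8), 333 in cyAC and 326 in cyFT. It was read in 56.6% of the post-transplant cells (50.9% to 62.1%) and in 91.2% to 98.7% of the cells of the other conditions. At equal depth the share was 27.5% in post-transplant cells and 79.0% in the pre-transplant cells of the same matrix. *ND6* is the only protein gene on the other DNA strand, opposite which the long precursor also runs, and whether the counting used strand is not given in the sources used here. It stood at 22.2 CPM in cyiPSC, 53.4 in pre-transplant cells, 22.7 in post-transplant cells, 92.5 in cyAC and 69.7 in cyFT, an order unlike that of the other mitochondrial genes.

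The make-up of the mitochondrial reads differed between libraries more than within them. The share of these reads that would have to change gene to turn 1 condition into another was 5.56 percentage points between cyiPSC and pre-transplant cells and 5.49 between cyAC and cyFT, both pairs from 1 library. Between conditions of different libraries it ran from 16.4 to 26.8 percentage points. *COX1* took 26.8% and 27.2% of the mitochondrial reads in cyiPSC and pre-transplant cells, 14.9% in post-transplant cells, and 9.15% and 12.9% in cyAC and cyFT. *ATP6* took 25.5% in post-transplant cells and between 8.19% and 13.7% elsewhere. Condition and library cannot be told apart in any comparison across libraries, so this pattern is given as measured.

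**Figure D3:**
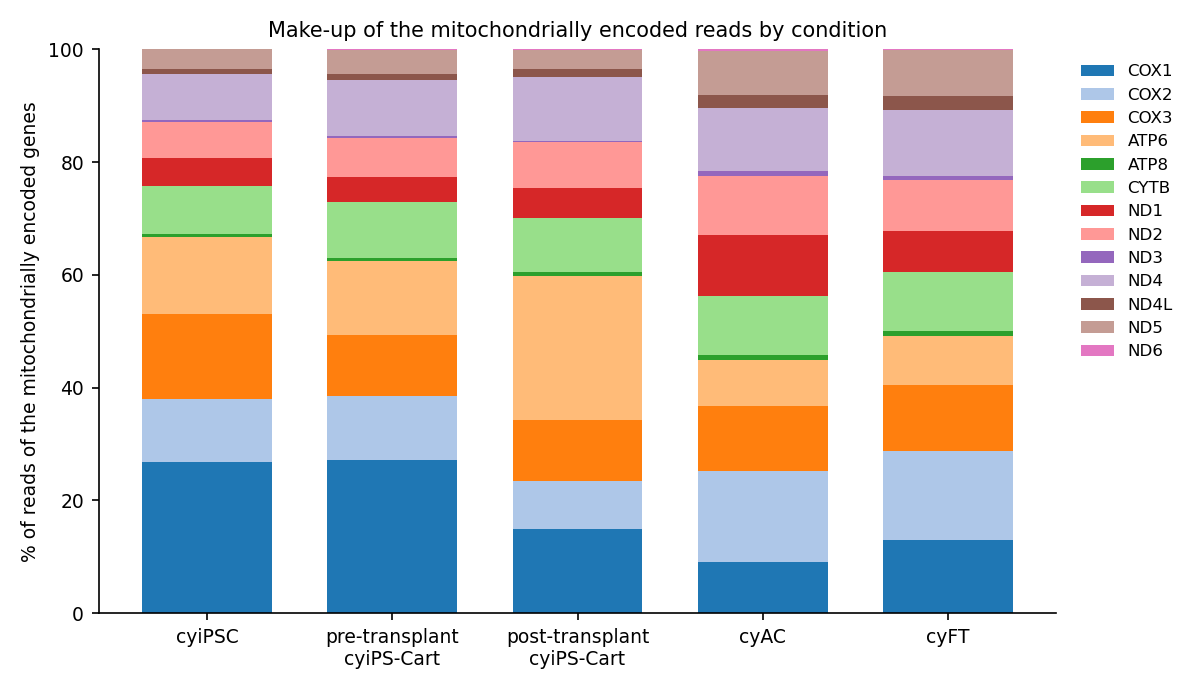
Make-up of the reads of the 13 mitochondrially encoded genes (y axis, % of these reads) in each condition, stacked by gene. The bars of cyiPSC and pre-transplant cells resemble each other, as do those of cyAC and cyFT, and *ATP6* takes 25.5% in post-transplant cells against 8.19% to 13.7% in the other conditions.

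The first comparison asked what differed between iPS cells and the cartilage made from them, and both conditions share 1 library. In CPM, most nuclear members were lower in pre-transplant cyiPS-Cart, more so than the mitochondrial ones. The nuclear members together went from 14197 CPM in cyiPSC to 6723 CPM, 2.11-fold lower (log2 ratio −1.08, interval −1.08 to −1.08). The mitochondrial members went from 77182 to 56341 CPM, 1.37-fold lower (log2 ratio −0.45). Genes were compared where either condition reached 50 CPM and a read in 25% of its cells, on the log2 ratio of CPM + 1, and a gene was counted as higher or lower past a 2-fold difference.

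Of the 63 nuclear members, 53 passed this filter, 28 were lower and 0 were higher. Of all 4684 genes that passed, 38.5% were lower and 18.4% were higher. The median log2 ratio was −1.01 for the nuclear members and −0.43 for the 13 mitochondrial ones, of which 1 was higher and 0 lower, against −0.63 for all genes. The scaling matters here. With TMM factors, which assume that most genes do not differ, the median of all genes moved to 0.25, the share of calls that were higher moved from 32.3% to 64.7%, and the summed mitochondrial members turned to a log2 ratio of 0.22, while the nuclear members stayed lower at −0.41. Of the 52 nuclear members that passed with TMM factors, 4 were lower and 2 higher, where 16.8% of all genes were lower and 30.8% higher, so the larger share of lower calls than among all genes did not hold under that scaling. The difference between the genomes does not depend on the scaling: reads of mitochondrial members for each nuclear member read had a log2 change of 0.62.

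Among the nuclear members past the filter, the largest difference was that of *ATP5IF1*, the inhibitor that blocks ATP hydrolysis by complex V. It stood at 186 CPM in cyiPSC and 43.2 CPM in pre-transplant cells (log2 ratio −2.08). It was followed by *NDUFA4* (922 and 267 CPM, −1.78) and *UQCRC1*, a core protein of complex III (295 and 85.5 CPM, −1.78). These 3 genes and *NDUFS6* were also past 2-fold with TMM factors. In complex I, *NDUFS6* (160 and 48.3 CPM, −1.71), *NDUFS8*, an iron-sulfur core subunit (177 and 55.3 CPM, −1.66), *NDUFB5* (327 and 105 CPM, −1.63), *NDUFS4* (175 and 58.3 CPM, −1.57) and *NDUFB3* (147 and 51.3 CPM, −1.502) came next. In complex V, *ATP5F1A* and *ATP5F1B*, the α and β subunits that carry the catalytic sites, stood at 1202 and 982 CPM in cyiPSC and at 409 and 335 CPM in pre-transplant cells, a log2 ratio of −1.55 for both.

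Some members kept near level or were above it. *NDUFB9*, an accessory subunit of complex I, went from 137 to 189 CPM (0.46), the highest value among the nuclear subunits past the filter. With TMM factors *NDUFB9* was higher by more than 2-fold. *ATP5F1D*, the δ subunit of the ATP synthase, stood at 63.1 and 58.1 CPM (−0.12), and *COX8A* at 115 and 90.5 CPM (−0.34). In complex II, *SDHD* (251 and 124 CPM, −1.01) and *SDHB* (145 and 86.7 CPM, −0.74) were both lower. Of the mitochondrial genes, *COX3* had the lowest ratio (−0.93) and *ND6* the highest, at 22.2 and 53.4 CPM (1.23), which was also past 2-fold with TMM factors.

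**Figure D4:**
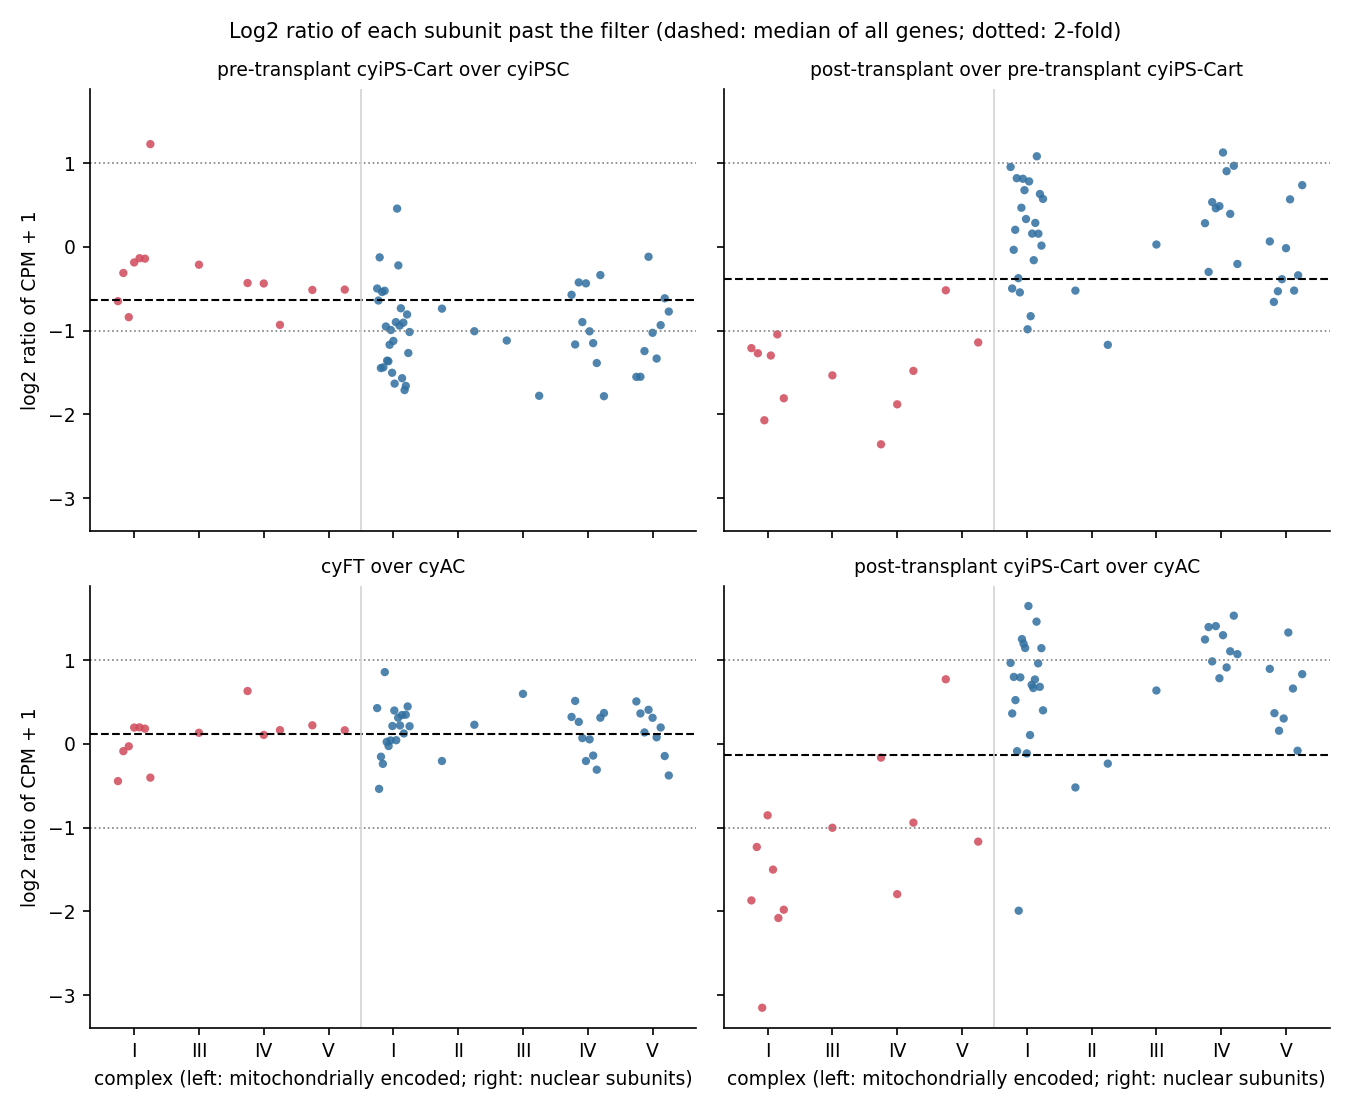
Log2 ratio of CPM + 1 (y axis) of each subunit past the filter in 4 comparisons, by complex (x axis), with mitochondrially encoded subunits in red and nuclear ones in blue. The dashed line is the median of all genes and the dotted lines mark 2-fold. In both comparisons of post-transplant cells most mitochondrial points lie below most nuclear points. Against cyAC, *ATP6* is an exception and lies at 0.77, among the nuclear points of complex V. Between cyFT and cyAC no point lies past 2-fold.

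The second comparison asked what differed in the organoids after 4 months in the knee. The mitochondrial members were lower and the nuclear ones were, as a sum, slightly higher. The mitochondrial members went from 55138 CPM in the 320 pre-transplant cells to 19737 CPM in post-transplant cells, 2.79-fold lower (log2 ratio −1.48, interval −1.49 to −1.48). The nuclear members went from 6650 to 7365 CPM (log2 ratio 0.15, interval 0.14 to 0.16). Of the 12 mitochondrial genes past the filter 11 were lower by 2-fold or more, the exception being *ATP6*, and *ND6* did not pass. Of 47 nuclear members past the filter 3 were higher and 2 lower. Among all 3421 genes that passed, 8.16% were higher and 22.1% lower.

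The median log2 ratio was −1.39 for the mitochondrial members and 0.20 for the nuclear ones, against −0.39 for all genes, and 10 of the 47 nuclear members lay below that median. With TMM factors the median of all genes moved to −0.12, the share of calls that were higher from 27.0% to 44.6%, and the members past 2-fold from 3 higher and 13 lower to 9 higher and 9 lower, where 11.5% of all genes were higher and 14.3% lower. The sums kept their directions, at −1.26 for the mitochondrial and 0.37 for the nuclear members. In the cells with *COL2A1* and no *COL1A1* reads in both conditions (265 post-transplant and 242 pre-transplant), chosen after the data were seen, the sums were −1.66 and 0.20. The conditions come from 2 libraries.

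By size, *COX1* came first (5.12-fold lower, −2.36), then *ND3* (4.28-fold, −2.07), *COX2* (3.68-fold, −1.88), *ND5* (3.501-fold, −1.81), *CYTB* (2.89-fold, −1.53) and *COX3* (2.79-fold, −1.48). *ND4*, *ND2*, *ND1*, *ATP8* and *ND4L* were lower by 2.46-fold to 2.07-fold, and *ATP6* by 1.43-fold (−0.52). With TMM factors *ND1*, *ATP8* and *ND4L* were no longer past 2-fold, nor was *ND4L* at equal depth. The size of the difference thus varied among genes of the same genome.

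On the nuclear side, *ATP5IF1* was higher, at 96.5 CPM against 40.5 CPM (1.23), although it was read in 48.1% of post-transplant and 62.2% of pre-transplant cells. *COX7A2*, the broadly expressed form of this complex IV subunit, stood at 168 and 76.4 CPM (1.13), and *NDUFS5* of complex I at 331 and 156 CPM (1.08). The lower ones were the assembly factor *NDUFAF4* (27.1 and 67.2 CPM, −1.28) and *SDHD*, a membrane anchor of complex II (55.6 and 126 CPM, −1.17). The other listed subunit of complex II, the iron-sulfur protein *SDHB*, was at 54.6 and 78.8 CPM (−0.52). *SDHB* and *SDHD*, a part of complex II only, were lower as a sum (log2 ratio −0.90, interval −0.96 to −0.83). The median of all genes was −0.39. *SDHD* was not past 2-fold with TMM factors, nor *NDUFS5* when all 3527 pre-transplant cells were used.

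Of the 14 nuclear subunits of complex IV, 10 passed the filter and 1 of these, *COX7A2*, was higher by 2-fold. A log2 ratio above 0 was found in 8 of the 10, against 1068 of the 3421 genes in all, and all 10 lay above the median of all genes. The range ran from *COX5A* (158 CPM in post-transplant and 194 CPM in pre-transplant cells, −0.30) to *COX7A2*, and the summed log2 ratio was 0.37 (interval 0.35 to 0.39), while the mitochondrial subunits of the same complex had −2.01. In complex I the nuclear sum had 0.22 and ran from *NDUFB5* (56.5 and 113 CPM, −0.98) to *NDUFS5*. In complex V it had −0.09 and ran from *ATP5F1B* (219 and 345 CPM, −0.66) to *ATP5PF*, a peripheral stalk subunit (232 and 139 CPM, 0.74). *UQCRC1* of complex III did not differ by more than its counting interval (83.1 and 81.5 CPM, 0.03).

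The third comparison set the post-transplant cells against the monkeys' own articular cartilage, again across libraries, and it shares its post-transplant cells with the second. The mitochondrial members stood at 19737 CPM against 36038 CPM in cyAC (log2 ratio −0.87, interval −0.87 to −0.86), and the nuclear members at 7365 against 4422 CPM (0.74, interval 0.72 to 0.75). Of 13 mitochondrial genes 9 were lower by 2-fold or more, and of 45 nuclear members past the filter 14 were higher and 1 lower. Among all 3235 genes that passed, 10.8% were higher and 17.8% lower. The median log2 ratio was −1.23 for the mitochondrial and 0.78 for the nuclear members, against −0.13 for all genes. With TMM factors 8 mitochondrial genes were lower, and of 49 nuclear members 20 were higher and 1 lower, where 12.8% of all genes were higher and 15.3% lower.

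*ND3* had the largest difference (36.6 CPM in post-transplant cells and 333 in cyAC, 9.09-fold lower), followed by *ND5* (4.23-fold), *ND6* (4.07-fold), *ND1* (3.65-fold) and *COX2* (3.47-fold). *ND4L*, *ND2*, *ATP8* and *CYTB* were lower by 2.84-fold to 2.00-fold, and *CYTB* was not past 2-fold with TMM factors, per-cell CPM or a pseudocount of 5 CPM. *COX3* (−0.94) and *ND4* (−0.85) fell short of 2-fold, *COX1* was near level (−0.16) and *ATP6* was 1.71-fold higher (0.77). *COX1* was thus the mitochondrial gene with the largest difference from pre-transplant cells and the smallest from cyAC among the 13.

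The nuclear members of complex IV that passed the filter were all on the higher side. These 10 of 14 had log2 ratios of 0.78 (*COX6C*) or more, and 7 were past 2-fold, among them *COX8A* (180 CPM in post-transplant cells and 61.6 in cyAC, 1.53), *COX6B1* (85.2 and 31.5 CPM, 1.41), *COX5A* (158 and 59.4 CPM, 1.39), *COX7A2* (168 and 67.8 CPM, 1.30) and *COX4I1* (644 and 271 CPM, 1.25). Among those below the filter, *COX4I2* (8.94 and 35.2 CPM, −1.86), *COX7A1* (9.95 and 34.2 CPM, −1.69) and *NDUFA4L2* (32.7 and 44.1 CPM, −0.42) were lower. *COX6B1* reached 50 CPM only in post-transplant cells, so the filter had a part in this one-sided result. In complex I, *NDUFB7* (101 and 31.5 CPM, 1.65), *NDUFS5* (331 and 120 CPM, 1.46) and *NDUFB2* (150 and 62.7 CPM, 1.25) were higher. *NDUFB7* also reached 50 CPM only in post-transplant cells. *NDUFB1* was the nuclear member past the filter that was lower by 2-fold, at 12.5 against 52.5 CPM (−1.99). In complex V the extremes were *ATP5MC2*, which encodes the c ring (371 and 147 CPM, 1.33), and *ATP5PB*, a stalk subunit (142 and 150 CPM, −0.08). The listed subunits of complex II were again the exception, with *SDHB* at 54.6 and 78.7 CPM (−0.52) and *SDHD* at 55.6 and 65.6 CPM (−0.24). *UQCRC1* was at 83.1 and 53.1 CPM (0.64).

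The fourth comparison set the fibrous tissue of untreated defects against cyAC, within 1 library. No OXPHOS gene past the filter differed by 2-fold. Of the 56 members that passed (43 nuclear and 13 mitochondrial), 0 were higher and 0 lower, where 7.06% of all 3270 genes were higher and 3.73% lower. The mitochondrial members summed to 39471 CPM in cyFT and 36038 CPM in cyAC (log2 ratio 0.13, interval 0.12 to 0.14), and the nuclear ones to 4921 and 4422 CPM (0.15, interval 0.14 to 0.17). The medians were 0.16 and 0.21, against 0.11 for all genes.

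These small sums took the other sign with TMM factors, at −0.05 and −0.03, where the median of all genes was −0.10 and the share of calls that were higher moved from 65.4% to 47.1%. With these factors 0 members were past 2-fold, where 5.01% of all genes were higher and 5.64% lower. The sums also took the other sign in the cells with *COL2A1* and no *COL1A1* reads (84 cyFT and 276 cyAC cells), at −0.20 and −0.09, where *COX8A* was lower by 2-fold. The mitochondrial genes ran from *ND1* (2888 CPM in cyFT and 3931 in cyAC, −0.44) to *COX1* (5108 and 3299 CPM, 0.63). In complex I the range was from *NDUFA11* (85.6 and 125 CPM, −0.54) to *NDUFA9* (70.2 and 38.3 CPM, 0.86). In complex IV it was from *COX8A* (49.5 and 61.6 CPM, −0.31) to *COX5A* (85.2 and 59.4 CPM, 0.51), and in complex V from *ATP5PF* (99.6 and 130 CPM, −0.38) to *ATP5F1A* (328 and 230 CPM, 0.51). *UQCRC1* was at 80.8 and 53.1 CPM (0.60), *SDHD* at 77.0 and 65.6 CPM (0.23) and *SDHB* at 68.2 and 78.7 CPM (−0.20).

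Several complex IV subunits have tissue-specific forms, and these were set against the common form as a share of the reads of the pair, which does not depend on scaling. *COX4I2* is the form known from lung and hypoxia, and takes the place of *COX4I1*. It made up 0.669% of the pair in cyiPSC (interval 0.641% to 0.698%), 0.127% in pre-transplant cells (0.108% to 0.148%), 1.37% in post-transplant cells (1.21% to 1.54%), 11.5% in cyAC (10.5% to 12.6%) and 3.64% in cyFT (3.08% to 4.28%). It was read in 54 of 320 cells in cyAC, 26 in cyFT and 9 in post-transplant cells, where the smallest count above 0 was 9 reads, against 1 read in cyAC and cyFT. Within 1 library the share was higher in cyAC than in cyFT. The intervals treat reads as independent, but all reads came from these few cells, so true intervals are wider.

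*NDUFA4L2*, a paralog of *NDUFA4* known as a target of the hypoxia factor HIF1, had 0.318 CPM in cyiPSC (interval 0.266 to 0.377), 10.3 in pre-transplant cells, 32.7 in post-transplant cells, 44.1 in cyAC and 57.3 in cyFT. As a share of the pair it was 0.0344%, 3.69%, 12.6%, 29.0% and 29.9%. It was read in 2.56% of cyiPSC cells at a median of 143075 reads, and in 23.3% of pre-transplant, 47.2% of post-transplant, 49.1% of cyAC and 57.5% of cyFT cells at lower depth. At equal depth the shares were 0.738% and 17.3% in the first matrix, and 6.27% in pre-transplant, 21.2% in post-transplant, 32.1% in cyAC and 40.3% in cyFT cells in the second. The shares of the pair in cyAC and cyFT overlapped within their intervals, which run from 26.9% to 31.2% and from 28.0% to 31.9%.

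*COX7A1*, the form typical of heart and muscle, made up 3.48% of its pair with *COX7A2* in cyiPSC, 9.41% in pre-transplant cells, 5.59% in post-transplant cells (interval 4.99% to 6.24%), 33.6% in cyAC (30.9% to 36.3%) and 32.0% in cyFT (29.0% to 35.0%). In CPM it stood at 5.98, 8.51, 9.95, 34.2 and 27.6, so that its level was highest in cyAC. *COX6B2*, the form known from testis, made up 3.40% of its pair with *COX6B1* in cyiPSC (3.25% to 3.56%) and 0.464% in pre-transplant cells (0.363% to 0.584%). It had 0 reads in post-transplant cells, cyAC and cyFT, which allows up to 0.1005, 0.254 and 0.271 CPM.

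**Figure D5:**
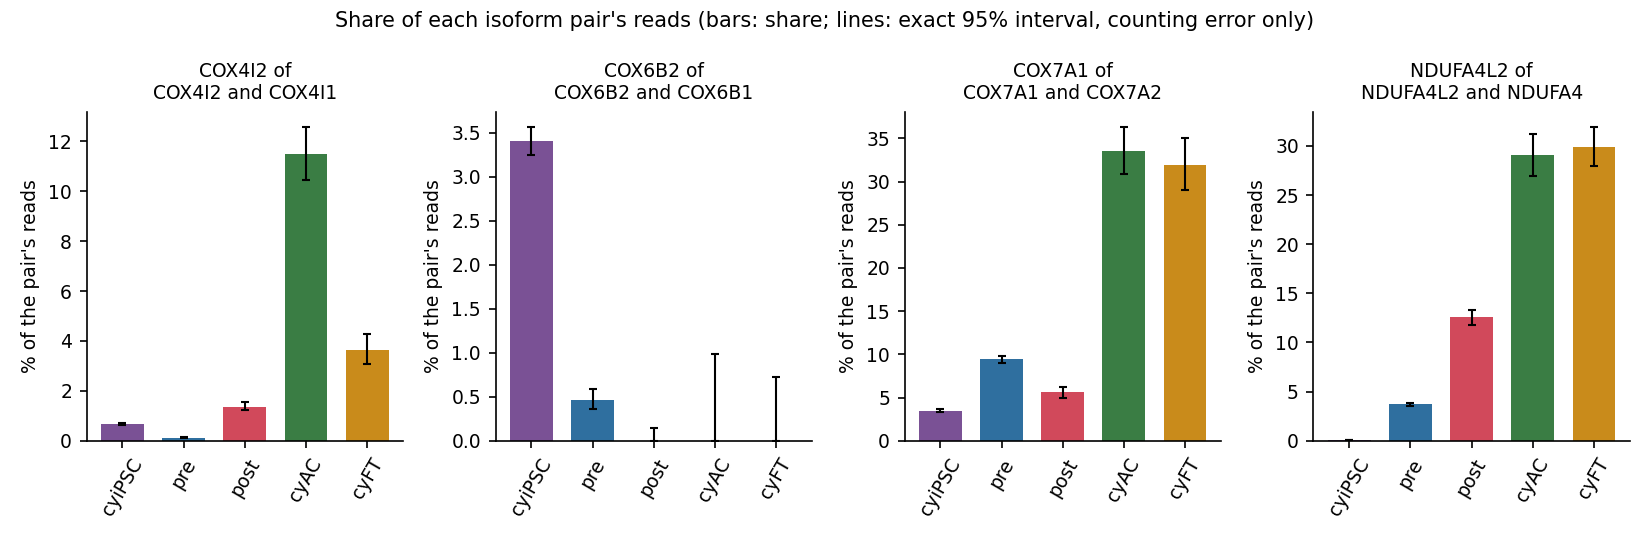
Share of the reads of each pair of isoforms that came from the tissue-specific form (y axis, %), by condition, with exact 95% intervals of counting error. The shares of *COX7A1* and *NDUFA4L2* in cyAC and cyFT lie between 29.0% and 33.6%, above all other conditions, and *COX6B2* was read only in cyiPSC and pre-transplant cells.

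The nuclear core of complex I, which holds the NADH site and most of the iron-sulfur clusters, is represented by 5 listed members. *NDUFV1*, which binds NADH, stood at 77.8 CPM in cyiPSC, 44.1 in pre-transplant cells, 63.8 in post-transplant cells, 39.4 in cyAC and 50.4 in cyFT. *NDUFV2* stood at 331, 137, 150, 67.3 and 92.1 CPM in the same order, *NDUFS1* at 95.5, 49.3, 34.8, 25.5 and 43.9 CPM, and *NDUFS3* at 169, 101, 88.2, 55.2 and 64.5 CPM. All of these and *NDUFS8* were highest in cyiPSC and lowest in cyAC in CPM. The subunits *SDHA* and *SDHC* of complex II were not analysed here.

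The assembly factors were mostly too low to compare. Of 8, only *NDUFAF3* and *NDUFAF4*, which act together in building complex I, passed the filter in each comparison. *NDUFAF3* stood at 46.2 CPM in cyiPSC, 72.4 in pre-transplant cells, 104 in post-transplant cells, 61.3 in cyAC and 64.8 in cyFT, and *NDUFAF4* at 135, 61.8, 27.1, 52.9 and 43.9 CPM. The pair thus ran in opposite directions from cyiPSC through the organoids before and after transplantation. The other 6 stood at 44.8 CPM or less in every condition.

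Within single conditions, cells that held *COL1A1* and no *COL2A1* reads had a higher mitochondrial share than cells with *COL2A1* alone. *COL2A1* encodes the collagen of hyaline cartilage and *COL1A1* that of fibrous tissue. In pre-transplant cells the median share was 7.24% in 254 cells with *COL1A1* alone and 5.24% in 2588 cells with *COL2A1* alone. In cyFT it was 4.23% in 170 cells and 2.72% in 84 cells, and in cyAC 4.67% in 16 cells and 3.27% in 276 cells. In post-transplant cells it was 7.74% in 7 cells, all 7 with *EGFP* reads, and 1.62% in 265 cells. The direction was thus the same in all 4 conditions, with very few such cells in the latter 2. Cells with neither collagen had medians of 7.08% in pre-transplant cells (11 cells) and 5.59% in cyAC (25 cells). A high share was thus not particular to cells with *COL1A1*.

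The nuclear share followed in part. It was 0.730% and 0.661% in pre-transplant cells, 0.523% and 0.417% in cyFT, 0.537% and 0.447% in cyAC, and 0.712% and 0.748% in post-transplant cells, in cells with *COL1A1* alone and *COL2A1* alone. Gene by gene, the median log2 ratio between these cells was 0.40 for the mitochondrial and 0.18 for the nuclear members in pre-transplant cells, against 0.16 for all genes, and 0.56 and 0.48 in cyFT, against 0.25 for all genes. Cells of 1 sample share their source, and reads per cell in cyFT had medians of 21830 with *COL1A1* alone and 47802.5 with *COL2A1* alone. The 33 cyFT cells with neither collagen had a median mitochondrial share of 6.21% and held *CD14* at 2344 CPM and *LYZ* at 2571 CPM, genes of myeloid cells, against 15.6 and 16.7 CPM in the cyFT cells with *COL2A1* alone.

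Other genes of the pathway were counted from 5 lists. In pre-transplant cells against cyiPSC, 30 of the 54 that passed were lower and 1 higher, where 38.5% of all genes were lower and 18.4% higher, and with TMM factors 11 of 49 were lower and 2 higher, where 16.8% of all genes were lower and 30.8% higher. By list, 10 of the 11 genes for transcription and copying of mitochondrial DNA that passed the filter were lower and 0 higher (median log2 ratio −1.78, from −3.53 in *POLG2*, a subunit of the mitochondrial DNA polymerase, to −0.78 in *TFB2M*, a transcription factor), and with TMM factors 4 of 9. Of the other assembly factors 12 of 19 were lower (median −1.39, from *FOXRED1* at −2.25 to *SCO1* at 0.01), and of the citrate cycle enzymes 6 of 11 (median −1.06, from *IDH3B* at −1.86 to *SUCLG1* at 0.42), and with TMM factors 6 of 14 and 1 of 12. Of 7 carriers of electrons and nucleotides 2 were lower (from *SLC25A5* at −1.25 to *SLC25A6* at 0.25) and 0 with TMM factors, and of 6 regulators 1 was higher, *HIF1A* at 1.69, with *YY1* lowest at −0.73. The median of all genes in this comparison was −0.63.

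In post-transplant against pre-transplant cells 4 of the 29 listed genes that passed were lower and 0 higher, where 22.1% of all genes were lower and 8.16% higher. With TMM factors 2 of 27 were lower, where 14.3% of all genes were, and neither *TFB2M* nor *VDAC3* was among them. Of 8 citrate cycle genes that passed 0 were higher and 0 lower (median −0.56, from *IDH3A* at −0.98 to *IDH3G* at −0.19), and of 5 genes for mitochondrial DNA 1 was lower, *TFB2M* at −1.08, with *SSBP1* highest at −0.05. Of 7 carriers 1 was lower, the channel *VDAC3* at −1.05, with the nucleotide carrier *SLC25A4* highest at 0.18. Of 5 regulators 2 were lower, *GABPB1* lowest at −1.68 and *YY1* highest at 0.02, and of 4 other assembly factors 0 were past 2-fold (from *SCO1* at −0.85 to *COA3* at 0.06).

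In post-transplant cells against cyAC, 2 of 21 were lower and 1 higher, where 17.8% of all genes were lower and 10.8% higher. Among them, 1 of 7 carriers was higher, *SLC25A6* at 1.51, and 2 of 5 regulators were lower, with *MYC* lowest at −2.64 and *YY1* highest at 0.48. None of the 4 citrate cycle genes, 3 genes for mitochondrial DNA (*SLIRP* at −0.50 lowest, *LRPPRC* at 0.59 highest) and 2 other assembly factors was past 2-fold. In cyFT against cyAC, 0 of 22 were lower and 2 higher, where 3.73% of all genes were lower and 7.06% higher. Here 1 of 6 citrate cycle genes was higher, *OGDH* at 1.013, which was not past 2-fold with TMM factors, and 1 of 6 regulators, *NFE2L2* at 1.25, with *MYC* lowest at −0.38. The 7 carriers ran from *SLC25A5* at −0.04 to *SLC25A4* at 0.88, and the 2 genes for mitochondrial DNA and 1 other assembly factor were within 2-fold.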

How the data were processed

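The values are read counts for each gene in each cell, as the authors deposited them. To make these counts, the authors trimmed reads with cutadapt 3.4, assigned them with Bowtie2 2.4.2 to Ensembl transcripts of the cynomolgus monkey (the submitters' processing notes also name the human build GRCh38), kept cells above the knee, separated pooled samples by hashtag, set background counts to 0 and removed cells above a mitochondrial threshold, and reduced the second matrix to 320 cells per condition. The 3 hashtag libraries were not used. Cells were taken to conditions by the prefixes of their names. Nuclear members may share reads with pseudogenes or near copies, which the counting could split, and are uncertain to that extent. Gene symbols were used as listed, of which 94.9% matched RefSeq genes of a different assembly, and no coordinates are given.

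Reads were summed per condition and expressed as CPM with all listed genes in the total (pseudocount 1 CPM, minimum 50 CPM in either condition and a read in 25% of the cells of either). Sums have exact Poisson, shares exact Clopper-Pearson and ratios exact conditional 95% intervals, the latter without the pseudocount, and the changes of ratios per complex have normal intervals on the log scale. A count of 0 has the limit that 3 counts give. Equal depth means thinning to 30967 reads per cell in the first matrix and 12191 in the second. Depth is 11087496 to 415457877 reads per condition. Named genes are all mitochondrial members, the extremes of each complex, members past 2-fold up to 10 by size, isoform pairs, complex II and the core of complex I. Members, lists and alternatives were chosen with earlier results of these data known. Alternatives were CPM without mitochondrial reads, TMM factors (edgeR 4.0.16) on the summed counts, the mean of per-cell CPM, thinning, a stricter cell filter (500 genes, mitochondrial share within 3 median absolute deviations), leaving out cells marked as doublets by scrublet (scanpy 1.11.5; in the second matrix 19 pre-transplant, 33 post-transplant, 2 cyAC and 2 cyFT cells, and in the first 14 cyiPSC and 0 pre-transplant cells, too few to take the caller as having worked there), other pseudocounts (0.5 and 5), no gene filter and the larger pre-transplant set. The stricter filter bounded the mitochondrial share from above only, with a limit set per condition. After the data were seen, the cells with *COL2A1* and no *COL1A1* reads were added as an alternative. The steps were tested on simulated data.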

Additional observations from a re-analysis of the deposited data

How the results depend on the processing

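Values are log2 ratios of the summed members unless counts are named. The stricter cell filter acts on the mitochondrial share itself, so its mitochondrial sums are no independent check. For the mitochondrial members in pre-transplant cells against cyiPSC (−0.45), CPM without mitochondrial reads gave −0.49, per-cell CPM −0.47, thinning −0.47 and the stricter cell filter −0.50, and TMM factors turned the sign, to 0.22. For the nuclear members (−1.08) the same settings gave −1.11, −1.08, −1.08 and −1.09, and TMM gave −0.41. The number of members past 2-fold went from 29 to 7 with TMM, and among all genes the higher ones went from 860 to 1394 and the lower ones from 1801 to 761. In post-transplant against pre-transplant cells the mitochondrial sum (−1.48) was −1.54 without mitochondrial reads in the total, −1.26 with TMM, −1.504 per cell, −1.502 thinned, −1.69 with the stricter filter, −1.49 without marked doublets, −1.51 with the larger pre-transplant set and −1.66 in cells with *COL2A1* and no *COL1A1* reads. The nuclear sum (0.15) was 0.094 without mitochondrial reads in the total, 0.37 with TMM, 0.17 thinned, 0.17 with the stricter filter, 0.13 with the larger set and 0.20 in the *COL2A1* cells, and the lower genes among all went from 756 to 494 with TMM. In cyFT against cyAC the mitochondrial sum (0.13) was 0.16 per cell, 0.15 thinned and 0.088 with the stricter filter, and turned to −0.053 with TMM and −0.20 in the *COL2A1* cells. The nuclear sum (0.15) was 0.13 with the stricter filter and turned to −0.030 with TMM and −0.086 in the *COL2A1* cells. The number of members past 2-fold there, 0, became 4 of 75 with no gene filter, where 1658 of all 12110 genes were higher and 690 lower. It became 1 of 51 in the *COL2A1* cells, where 198 of all 3146 genes were higher and 164 lower. In post-transplant cells against cyAC the mitochondrial sum (−0.87) was −0.89 without mitochondrial reads in the total, −0.75 with TMM, −0.91 per cell, −0.91 thinned, −1.04 with the stricter filter, −0.88 without marked doublets and −1.02 in the *COL2A1* cells, and the nuclear sum (0.74) was 0.71, 0.85, 0.70, 0.71 and 0.76 under the first 5 of these and 0.75 in the *COL2A1* cells. Member by member (those past 2-fold and all mitochondrial genes past the filter), 923 of 966 values under an alternative kept their side of 2-fold and 43 crossed it. Of the 677 values of members past 2-fold, 0 changed sign. These members were picked for lying past 2-fold, so this count was nearly fixed in advance and is no check. Of the 289 values of mitochondrial genes within 2-fold, 25 changed sign. Among them were 10 of 12 in pre-transplant cells against cyiPSC with TMM. In cyFT against cyAC, 5 of 13 changed sign with TMM and 8 of 13 in the *COL2A1* cells. The causes were not tested. No paired analysis was possible because each condition has 1 sample. Depth limits the members read in few cells, which the filter left out.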
